A study of Mus musculus with 10 samples.

Results

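The respiratory chain was described in mouse colon organoids through 112 of the 56748 genes in the deposited table. Members were protein-coding genes chosen by name: subunits of complexes I to V, cytochrome c, complex I assembly factors whose names begin with Nduf, and the protein-coding genes of the mitochondrial genome. By genome of origin 99 were nuclear and 13 mitochondrial. Complex I held 45 members, complex II 4, complex III 10, complex IV 24 and complex V 20. Cytochrome c was represented by 1 gene and the assembly factors by 8. The rule used names and no measured value, but it was set with earlier results of these data known.

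The organoids are cultures of colon epithelium. A set of 5 libraries came from cultures given vehicle (replicates 1 to 5), and another 5 from cultures given WY-14643, a synthetic agonist of the nuclear receptor PPARα, at 100 µM for 2 days starting 3 days after passaging (replicates 6 to 10). Genotype, strain, animal and organoid line are not stated in the labels used here, and no group had PPARα removed or blocked, so no difference below can be assigned to the receptor. With no culture or animal named, p-values measure how far these libraries spread, and that spread may be technical.

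The respiratory chain sits in the inner mitochondrial membrane. Complexes I and II take electrons from NADH and succinate, coenzyme Q carries them to complex III, and cytochrome c carries them on to complex IV, which reduces oxygen. Complexes I, III and IV pump protons, and complex V, the ATP synthase, uses the returning protons to make ATP. Most subunits are encoded in the nucleus and imported, while the core subunits left in the mitochondrial genome are transcribed inside the organelle. Colonocytes rely on this chain to oxidise butyrate from the gut lumen.

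Levels are given in FPKM, a fragment count scaled for library size and per length of gene, so that they can be compared between genes. Recovered reads numbered 15618244 to 29271304 per library. Fold changes compare mean log2(FPKM + 1) between groups, a scale that understates the change of genes with low values. Genes with a mean of at least 0.5 FPKM were tested. They numbered 13607, and 103 members were among them. Deviations from the group means correlated between vehicle replicate 1 and WY-14643 replicate 6, replicate 2 and 7, and so on (0.423 to 0.782 across genes, at most 0.0602 otherwise), but no label states a pairing. A fit with these 5 pairs, here the matched fit, is given beside the fit without pairs. Summed epithelial markers ranged from 2488 to 4461 FPKM in vehicle and from 2393 to 4869 FPKM in WY-14643 libraries. Of the 6 markers of absorptive colonocytes Car4 was at 0 in all libraries, and the sum of the 6 ranged from 134 to 1059 FPKM and from 157 to 1780 FPKM. Markers of immune cells summed to at most 0.36 FPKM, with Cd3e and Lyz2 at 0, those of fibroblasts to at most 0.21 FPKM, with Dcn at 0, and those of red cells to 0. In bulk RNA, fewer cells of a type and less RNA per cell cannot be told apart.

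No member passed the test. In the fit without pairs, limma with Benjamini-Hochberg adjustment over all 13607 genes called 0 of 103 members higher and 0 lower, where it called 0% of all genes in each direction, and the adjusted p of every member was 1.0. At an unadjusted p under 0.05 it held 1 member, Cox7a2, which was higher. The background at that level was 1.01% of genes higher and 0.492% lower. That count was 5 without vehicle replicate 1, 3 without WY-14643 replicate 6 and 2 without vehicle replicate 2 or WY-14643 replicate 9. It was 0 without any other single library. The matched fit also called 0 members, against 0.287% of all genes called higher and 0.0294% called lower. Its smallest adjusted p among members was 0.228, for Ndufb10 (limma). At an unadjusted p under 0.05 it held 14 nuclear members that were higher and 1 that was lower, Ndufaf7. The background there was 5.48% of genes higher and 5.09% lower. The count of higher members depended on the pairs: it was 41 of 103 without pair 1, beside 6.74% of all genes, and 7, 8, 5 and 5 without pairs 2, 3, 4 and 5, beside 5.8%, 4.44%, 4.23% and 4.95%. Without pair 2, 4 or 5 the share of members was therefore near that of all genes. In no member did all WY-14643 libraries lie above, or all below, the vehicle libraries, which 0.243% and 0.11% of the tested genes did. Across the 26 other settings tried, 0 members were called in any.

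The nuclear members shared a small difference in mean that lay mostly in one direction. Of the 90 tested nuclear members, 79 had a higher mean log2 level in WY-14643, which 47.1% of all tested genes and 46.6% of tested protein-coding genes had. Their median log2 fold change was 0.09, beside -0.01 over all genes, and single values ran from -0.14 to 0.39. Members are parts of shared complexes and are not independent. Of the 99 nuclear members 41 share no 50-base word with another transcript, and 24 share at least 10% of them. Within the pairs, 14 nuclear members were higher in 5 of 5, beside a background of 5.63%. No member was lower in 5 of 5, beside 6.09%.

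Among single libraries 1 lowered the median most when left out, and leaving it out together with its partner lowered the median less. Summed markers of stem and proliferating cells were lowest in that library, vehicle replicate 4, and in its partner, at 23.2 and 31.1 FPKM beside 54.7 to 155.5 FPKM in the others. Summed markers of absorptive colonocytes were at 248, 1059, 402, 728 and 134 FPKM in vehicle replicates 1 to 5. In WY-14643 replicates 6 to 10 they were at 493, 1002, 585, 1780 and 157 FPKM. The part of these cell types in the result was not tested. Without vehicle replicate 4 the median was 0.02, with 53 of 90 members higher. Leaving out any other single library gave medians of 0.07 to 0.13. Pair by pair, the median difference over the 90 genes was -0.07, 0.11, 0.05, 0.25 and 0.15 in pairs 1 to 5 on the log2 scale. In pair 1, 37 of 90 members were higher in the WY-14643 library, and in pairs 2 to 5 it was 75, 59, 82 and 70. Genes of ribosomal RNA took 1.72% and 1.70% of the reads in the libraries of pair 1 and at most 1.09% in the others, and their part was not tested. Without pair 4 the median of the matched fit was 0.05, with 73 of 90 members higher.

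**Figure D1:**
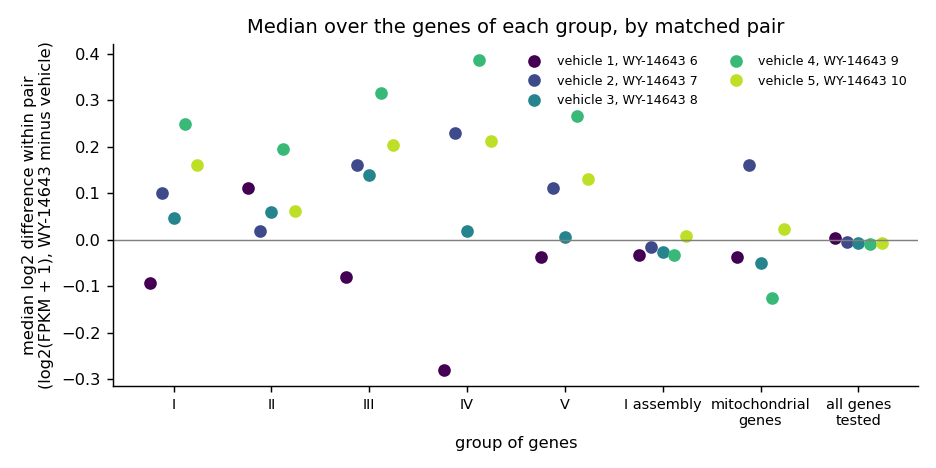
Median log2 difference, WY-14643 minus vehicle, within each of the 5 numbered pairs for nuclear members by complex, mitochondrial members and all tested genes. In pair 1 complexes I, III, IV and V lie below 0, at -0.09, -0.08, -0.28 and -0.04, and complex II lies above 0 at 0.11. Pair 4 is the highest for complexes I to V, at 0.25, 0.20, 0.32, 0.39 and 0.27.

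A pair of gene lists outside the chain also had their lowest medians in pair 1 and their highest in pair 4. Cytosolic ribosomal protein genes, 79 tested, had medians of -0.25, 0.02, -0.02, 0.23 and 0.15 in pairs 1 to 5 and a median fold change of 0.04 on the log2 scale. Protein-coding genes shorter than 1000 bases that are not members, 236 in number, had medians of -0.17, -0.03, 0.02, 0.21 and 0.12 and a median of 0.04. Both lists were added after the data had been seen. Over all tested genes the pair medians stayed between -0.01 and 0.00, and those of mitochondrial ribosomal proteins were -0.05, 0.11, -0.01, 0.02 and 0.03, highest in pair 2. Among nuclear members the 20 shorter than 1000 bases had a median of 0.12 with 18 higher, and the 70 at or above that length had 0.09 with 61 higher. The part of transcript length in the shift of the members was not tested.

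The share of reads on nuclear members was also compared. Nuclear members took 0.824%, 0.871%, 0.896%, 0.682% and 0.834% of the reads in vehicle replicates 1 to 5, and 0.828%, 0.937%, 0.925%, 0.770% and 0.878% in WY-14643 replicates 6 to 10. The groups overlapped. Vehicle replicate 4 and its numbered partner, WY-14643 replicate 9, were the lowest of their groups, and the WY-14643 library was the higher one in 5 of 5 pairs. The means were 0.821% ± 0.083 in vehicle and 0.868% ± 0.069 in WY-14643 (SD, n = 5 each). The difference of 0.0465 percentage points was 0.0116 without vehicle replicate 4, 0.0292 without WY-14643 replicate 7 and 0.0709 without WY-14643 replicate 9. Summed as FPKM, which scales each gene by its length, the members were lower in the WY-14643 library of pair 1, at 4483 FPKM in vehicle replicate 1 and 4340 FPKM in replicate 6, and higher in the other 4 pairs.

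**Figure D2:**
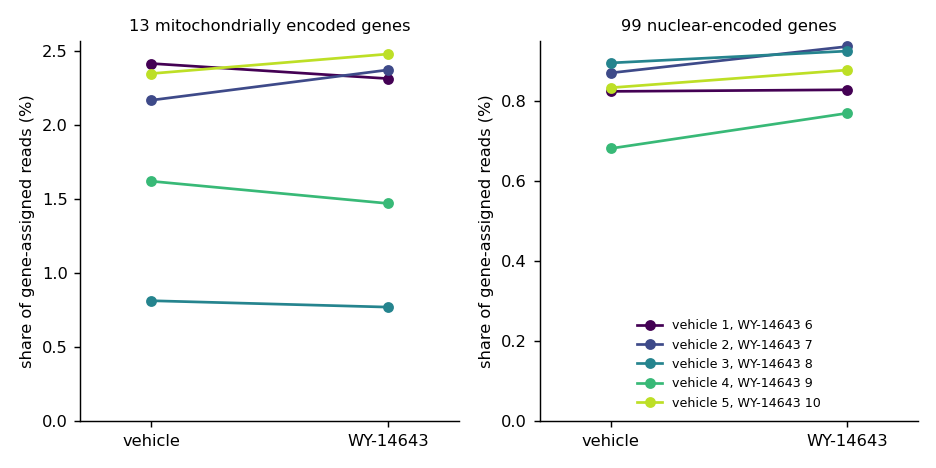
Percent of all recovered reads on nuclear members and on mitochondrial members in each library, with numbered partners joined. The nuclear share lies between 0.682% and 0.937% with the groups overlapping, and the mitochondrial share is lowest in vehicle replicate 3 and WY-14643 replicate 8.

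The 13 mitochondrial genes took a larger share of the reads than the nuclear members in 8 of 10 libraries, and the groups did not separate. They held 2.42%, 2.17%, 0.813%, 1.62% and 2.35% of the reads in vehicle and 2.32%, 2.38%, 0.770%, 1.47% and 2.48% in WY-14643 libraries. Vehicle replicate 3 and WY-14643 replicate 8 stood lowest, and the remaining libraries of both groups overlapped. The mean was 1.87% ± 0.671 in vehicle and 1.88% ± 0.741 in WY-14643 (SD, n = 5 each). The libraries were made from polyadenylated RNA. Mitochondrial messenger RNAs carry short tails, and the share captured need not be the same for each of them. Of the 13 genes, 5 had a higher mean in WY-14643. The log2 fold changes had a median of -0.03 and a range of -0.32 to 0.23. The median lay between -0.31 and 0.28 when single libraries were left out. In the matched fit with whole pairs left out it lay between -0.04 and 0.01. None was higher in at least 4 of 5 pairs, which 21.4% of all tested genes were, and none was lower in 5 of 5.

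The most abundant member was mt-Co1, the catalytic subunit of complex IV. Its level was 8312, 9077, 2583, 5574 and 7285 FPKM in vehicle replicates 1 to 5. In WY-14643 replicates 6 to 10 it was 8105, 8818, 2445, 5114 and 7718 FPKM. Each pair agreed more closely than the libraries of a group did, and the groups overlapped over nearly their whole range. mt-Cytb, the only complex III subunit of the mitochondrial genome, was at 3247, 1694, 741, 1551 and 2791 FPKM in vehicle and at 3000.5, 2183, 716, 1374 and 2835 FPKM in WY-14643. Again the lowest library of each group was replicate 3 and replicate 8. mt-Nd1, a membrane subunit of complex I at the coenzyme Q site, averaged 2343 ± 706 and 2503 ± 790 FPKM in the vehicle and treated groups (SD, n = 5 each). mt-Nd2 and mt-Nd5, which belong to the proton-pumping arm of complex I, averaged 1131 ± 531 and 1198 ± 595 FPKM, and 896 ± 338 and 858 ± 373 FPKM (SD, n = 5 each).

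mt-Co2, mt-Co3, mt-Atp6, mt-Atp8, mt-Nd3 and mt-Nd4l stood far lower than mt-Co1, between 9.26 and 158.1 FPKM in single libraries. mt-Co2, which receives electrons from cytochrome c, was at 70.6, 138.4, 29.0, 77.2 and 96.5 FPKM in vehicle and at 71.1, 77.4, 34.0, 38.9 and 95.5 FPKM in WY-14643 libraries. Its groups overlapped, and replicates 3 and 8 were again lowest in their groups. mt-Nd3, a small membrane subunit of complex I, was at 66.8, 15.4, 57.3, 115.0 and 17.4 FPKM in vehicle and at 41.1, 27.7, 54.3, 158.1 and 27.6 FPKM in WY-14643. Here replicates 4 and 9 were highest and replicates 3 and 8 were not low, unlike in mt-Co1.

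Several of these genes have a near-identical copy outside the mitochondrion. A nuclear copy of a stretch of the mitochondrial genome lies on chromosome 1 and is annotated as a run of unprocessed pseudogenes. Copies on chromosome 2 also share 50-base words. Gm13340 there shares 411 with mt-Co1, beside 430 for Gm29216 on chromosome 1, and Gm13341 shares 224 with mt-Co2. All 50-base words of mt-Co2 recur in other GENCODE M21 transcripts, as do 99.9% of those of mt-Co3, 99.5% of mt-Atp6, 98.8% of mt-Nd4l and 98.0% of mt-Nd3. The share was 62.2% for mt-Nd4, 51.1% for mt-Co1, 8.19% for mt-Nd2 and 7.61% for mt-Nd5, and 0% for mt-Nd1, mt-Cytb, mt-Nd6 and mt-Atp8. The opening 120 bases of mt-Co2 (GRCm38, chrM:7013-7132, plus strand) and of its copy Gm28661 (GRCm38, chr1:24615446-24615565, minus strand) are printed because a read from one cannot be told from a read of the other. No base is in capitals, since none differs.
mt-Co2: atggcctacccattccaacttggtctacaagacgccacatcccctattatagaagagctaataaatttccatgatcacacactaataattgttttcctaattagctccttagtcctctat
Gm28661: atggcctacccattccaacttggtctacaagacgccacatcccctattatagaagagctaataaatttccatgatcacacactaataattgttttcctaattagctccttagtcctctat
Over the whole stretch of 681 bases that could be compared, 0 differed. In the table's mm39 coordinates Gm28661 lies on chromosome 1 from 24653966 to 24654646. Gm28661 averaged 66.2 FPKM over all libraries beside 72.8 FPKM for mt-Co2, Gm10925 82.7 FPKM beside 60.5 FPKM for mt-Atp6, and Gm28437 36.8 FPKM beside 45.0 FPKM for mt-Co3. How reads with several matches were counted is not given in the sources used here, so the levels and differences of these members are uncertain, and the part of the copies in them was not tested. mt-Atp8 overlaps mt-Atp6 by 43 of its 204 bases and was also low. Its shared percentage of 0 counts annotated transcripts only, so an unannotated copy would be missed. On chromosome 1 the copy of mt-Atp6 ends at 24653732 and that of mt-Co2 begins at 24653966. The stretch between them was not compared with mt-Atp8. The values of mt-Atp8 were 20.6, 128.6, 24.4, 80.8 and 121.2 FPKM in vehicle and 38.9, 78.6, 57.0, 35.0 and 37.9 FPKM in WY-14643 libraries. mt-Nd6, which lies opposite to mt-Nd5 and overlaps it by 14 bases, ranged from 232 to 917 FPKM in vehicle and from 180 to 735 FPKM in WY-14643 libraries. The strand setting is not stated, so reads of the opposite strand cannot be told apart.

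**Figure D3:**
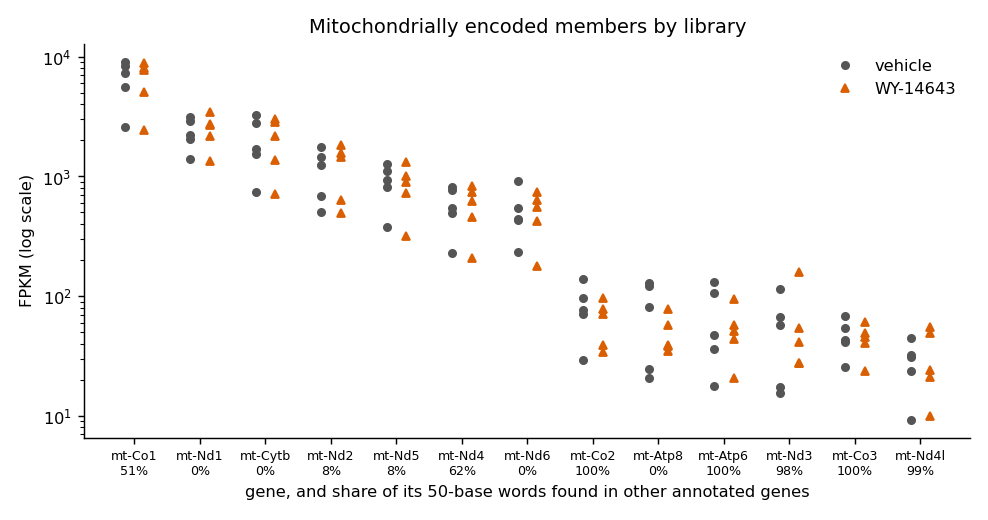
FPKM of the 13 mitochondrial members in each library on a log axis, vehicle and WY-14643 side by side. mt-Co1 lies between 2445 and 9077 FPKM, and the 6 members from mt-Co2 downward lie between 9.26 and 158.1 FPKM.

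Complex I, the NADH dehydrogenase, had 37 tested nuclear subunits. Of these, 35 were higher on average in WY-14643. Their median log2 fold change was 0.09, and 0 were called. Ndufa11, a membrane subunit that also takes part in supercomplexes, had the largest fold change among them. It was at 16.7, 13.9, 12.5, 8.48 and 14.2 FPKM in vehicle and at 15.6, 16.1, 14.4, 13.6 and 18.4 FPKM in WY-14643. The groups overlapped, vehicle replicate 4 lay lowest, and the log2 fold change was 0.25 (limma, matched adjusted p = 0.410). Ndufa11 lies on chromosome 17 from 57024767 to 57029141 (mm39). Ndufb10, a subunit of the membrane arm, had the smallest matched p of all members. Its values were 42.4, 58.3, 53.3, 35.9 and 49.2 FPKM in vehicle and 46.0, 62.7, 58.6, 42.9 and 55.2 FPKM in WY-14643. Each WY-14643 library was above its numbered partner although the groups overlapped. The log2 fold change was 0.15 with a matched SE of 0.04 and a 95% interval of 0.06 to 0.25 (limma, matched adjusted p = 0.228, lowest over all settings 0.187). Ndufb10 lies on chromosome 17 from 24941034 to 24943452.

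Among the catalytic subunits of complex I, Ndufs1, which carries iron-sulfur clusters, averaged 13.6 ± 2.05 and 14.0 ± 1.67 FPKM (SD, n = 5 each). Ndufv1, which binds NADH, averaged 37.6 ± 5.26 and 41.9 ± 3.75 FPKM (limma, matched adjusted p = 0.310). Ndufa9 and Ndufb3 were the 2 with a lower mean, at log2 fold changes of -0.00 and -0.10. Ndufa12 departed from the pairing. It was at 9.61, 27.0, 30.5, 11.1 and 27.4 FPKM in vehicle and at 20.7, 12.1, 11.3, 31.4 and 32.8 FPKM in WY-14643. High and low libraries occurred in both groups, and 17.7% of its 50-base words occur in other transcripts. Its matched 95% interval, from -1.02 to 1.12 around 0.05, was the widest of the nuclear members.

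The 8 assembly factors, which build complex I and are not part of it, were split in direction: 4 had a higher mean and 4 a lower one, and their median was -0.00. Ndufaf1, a chaperone of the membrane arm, averaged 13 ± 1.2 and 14.0 ± 1.34 FPKM and was higher in 5 of 5 pairs. Ndufaf7, a methyltransferase needed for complex I assembly, averaged 9.32 ± 1.14 and 8.39 ± 0.836 FPKM (SD, n = 5 each) and was lower in 4 of 5 pairs (limma, matched adjusted p = 0.369). Whether assembly factors and subunits differ from each other was not tested.

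Complex II, the succinate dehydrogenase, is wholly nuclear. Sdhb, the iron-sulfur subunit, was at 29.5, 26.0, 23.0, 15.1 and 22.3 FPKM in vehicle and at 31.1, 26.5, 24.5, 18.0 and 23.2 FPKM in WY-14643. Sdhc and Sdhd anchor the enzyme in the membrane, and with Sdhb they were higher in 5 of 5 pairs, at log2 fold changes of 0.10 for Sdhb, 0.09 for Sdhc and 0.10 for Sdhd. The groups overlapped for each, and none passed (limma, matched adjusted p = 0.505, 0.483 and 0.545). Sdha, the flavoprotein that oxidises succinate, averaged 95 ± 11.1 and 94.5 ± 7.26 FPKM (SD, n = 5 each), was higher in 2 of 5 pairs and had a log2 fold change of -0.00.

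Complex III passes electrons from coenzyme Q to cytochrome c, and all 9 of its nuclear members were higher on average, at a median log2 fold change of 0.13, and 0 were called. Its pair medians were -0.08, 0.16, 0.14, 0.32 and 0.20. Uqcrb, a subunit near the coenzyme Q site, was at 101.6, 76.0, 77.9, 41.3 and 53.2 FPKM in vehicle and at 91.2, 90.8, 80.6, 71.7 and 78.7 FPKM in WY-14643. Vehicle replicates 4 and 5 lay below every WY-14643 library, and replicate 1 above all of them. The log2 fold change was 0.30 (limma, matched adjusted p = 0.506), and 25.5% of its 50-base words are shared with other transcripts. Uqcr10, a small subunit with no shared word, was at 73.5, 60.4, 62.0, 35.7 and 53.4 FPKM in vehicle and at 53.9, 78.6, 72.0, 62.0 and 73.9 FPKM in WY-14643, a log2 fold change of 0.28 (limma, matched adjusted p = 0.612). Vehicle replicate 4 was again lowest, and the groups overlapped. Without single libraries the log2 fold change of Uqcrb lay between 0.13 and 0.45, and that of Uqcr10 between 0.12 and 0.38.

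Of the other complex III subunits, Uqcrc2, a core subunit, was at 74.5, 83.4, 72.5, 50.6 and 63.6 FPKM in vehicle and at 82.9, 87.6, 80.4, 57.9 and 68.7 FPKM in WY-14643, higher in 5 of 5 pairs with overlapping groups. Its log2 fold change was 0.13 (limma, matched adjusted p = 0.266). Cyc1, the cytochrome that hands electrons to cytochrome c, averaged 53.2 ± 5.85 and 57.0 ± 8.15 FPKM (SD, n = 5 each) and was also higher in 5 of 5 pairs. Uqcrfs1, the Rieske iron-sulfur protein, averaged 79.3 ± 8.47 and 84.2 ± 6.90 FPKM. Cycs, cytochrome c itself, was at 40.9, 25.7, 25.7, 18.3 and 26.7 FPKM in vehicle and at 36.3, 35.6, 28.8, 25.3 and 29.8 FPKM in WY-14643. Vehicle replicate 1 was highest of all and replicate 4 lowest, and the log2 fold change was 0.21 (limma, matched adjusted p = 0.495). Processed copies of this gene are many in mammalian genomes, and 26.1% of its 50-base words are shared.

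**Figure D4:**
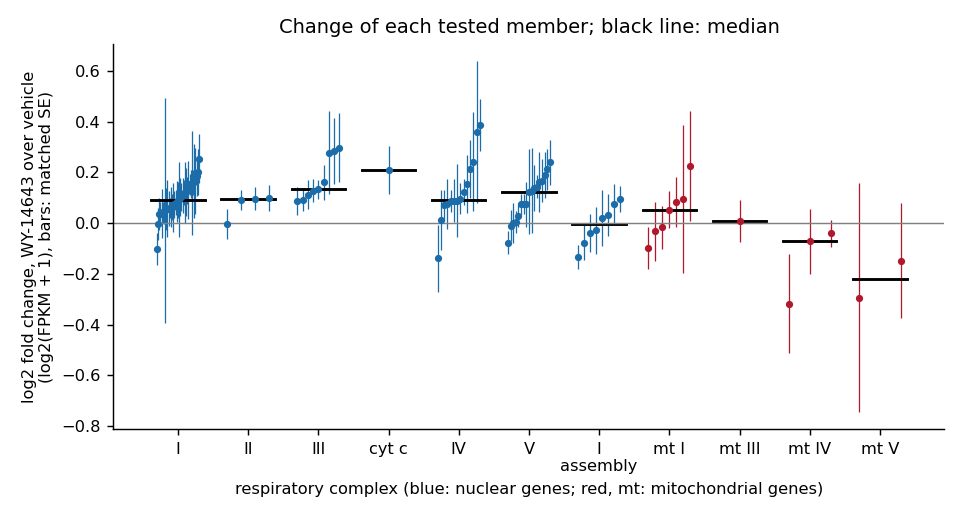
Log2 fold change, WY-14643 against vehicle, of the 103 tested members, 1 point per gene, grouped by complex and genome of origin. Nuclear members lie between -0.14 and 0.39 and mitochondrial members between -0.32 and 0.23. Medians of the nuclear groups with at least 4 tested genes run from -0.00 for assembly factors to 0.13 for complex III.

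Complex IV, cytochrome c oxidase, held the member with the largest fold change on the log2(FPKM + 1) scale. Cox7a2, the form of subunit VIIa found in most tissues, was at 59.0, 53.5, 45.7, 31.8 and 45.4 FPKM in vehicle and at 56.4, 75.4, 58.9, 52.8 and 61.9 FPKM in WY-14643. Vehicle replicates 3, 4 and 5 lay below every WY-14643 library, while replicates 1 and 2 lay within their range. The means were 47.1 ± 10.2 and 61.1 ± 8.64 FPKM (SD, n = 5 each), and the WY-14643 library was higher in 4 of 5 pairs, all but pair 1. The log2 fold change was 0.39 with a matched SE of 0.10 and a 95% interval of 0.14 to 0.63. It did not pass without pairs (limma, adjusted p = 1.0), in the matched fit (0.239) or in any other setting, of which the lowest adjusted p was 0.0512. It lay between 0.26 and 0.47 when single libraries were left out. Cox7a2 lies on chromosome 9 from 79662643 to 79667160 (mm39) and shares no 50-base word with another transcript.

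Of the 14 tested nuclear members of complex IV, 13 were higher on average, at a median of 0.09. The pair medians were -0.28, 0.23, 0.02, 0.39 and 0.21, so pair 1 went against the others. Cox6a1, Cox6b1, Cox8a and Cox4i1 were the most abundant. Cox6a1 averaged 208 ± 33.5 and 218 ± 34.7 FPKM, Cox6b1 137 ± 31.8 and 157 ± 27.8 FPKM, and Cox8a 136 ± 27.4 and 162 ± 33.6 FPKM (SD, n = 5 each). Cox4i1, a regulatory subunit that binds ATP, was at 129.5, 155.4, 147.9, 101.4 and 147.0 FPKM in vehicle and at 144.0, 161.2, 149.7, 115.2 and 150.7 FPKM in WY-14643, higher in 5 of 5 pairs with overlapping groups. Cox5b-ps, which the table lists as protein-coding in spite of its name, had the lowest nuclear value, -0.14, and shares 61.9% of its words, mainly with Cox5b, whose fold change was 0.10. The split of reads between those 2 genes is uncertain.

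Subunits with tissue-specific forms were present in the general form. Cox4i1, Cox6a1, Cox6b1, Cox7b and Cox8a averaged at least 78.8 FPKM in vehicle libraries, and Cox7a2 47.1 FPKM. Cox4i2, the lung and low-oxygen form, averaged 0.127 and 0.0152 FPKM in vehicle and WY-14643. Cox6a2, the heart and muscle form, averaged 0.0279 and 0.0826 FPKM, and the testis form Cox6b2 0.192 and 0.276 FPKM. Cox8b, Cox8c and Ndufa4l2 each had reads in at most 1 library of a group, and Cox7b2 and Ndufb11b were listed at 0 in all 10 libraries, as was the second row that carries the name Atp5o. These 9 genes were not tested. Cox7a1, the heart and muscle form of subunit VIIa, did pass the level filter, at 1.42, 2.77, 1.595, 0.474 and 1.05 FPKM in vehicle and 0.706, 3.90, 1.79, 3.47 and 1.37 FPKM in WY-14643. High and low libraries of Cox7a1 occurred in both groups. In the alternative settings that kept all libraries its log2 fold change ran from 0.26 to 0.58, and that of Cox7a2 from 0.38 to 0.40. Which of them ranks first thus depends on the setting. Cox7a2l, a supercomplex factor of the same family, averaged 89.4 ± 14.8 and 97.0 ± 12.9 FPKM (SD, n = 5 each).

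Complex V, the ATP synthase, had 17 tested nuclear members, of which 14 were higher on average, at a median of 0.12, and 0 were called. In its catalytic core, Atp5a1 averaged 331 ± 17.7 and 329 ± 30.6 FPKM, and Atp5b 301 ± 20.8 and 308 ± 30.7 FPKM (SD, n = 5 each). These were the most abundant nuclear members. Atp5d, the delta subunit of the rotor, was at 67.3, 71.3, 65.4, 51.1 and 55.7 FPKM in vehicle and at 64.0, 82.1, 74.4, 78.6 and 67.4 FPKM in WY-14643. The groups overlapped, and the log2 fold change was 0.24 (limma, matched adjusted p = 0.411). Atp5d lies on chromosome 10 from 79974466 to 79981652 (mm39). Atp5g1, Atp5g2 and Atp5g3 encode the same mature c-ring protein. Atp5g1 averaged 10.6 ± 1.57 and 12.5 ± 1.81 FPKM, Atp5g2 42.4 ± 4.77 and 44.7 ± 4.18 FPKM, and Atp5g3 66.8 ± 11.9 and 73.5 ± 11 FPKM (SD, n = 5 each). Of these 3, Atp5g1 and Atp5g3 were higher in 5 of 5 pairs (limma, matched adjusted p = 0.419 and 0.315), and Atp5g2, which shares 38.3% of its words with other transcripts, in 3.

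**Figure D5:**
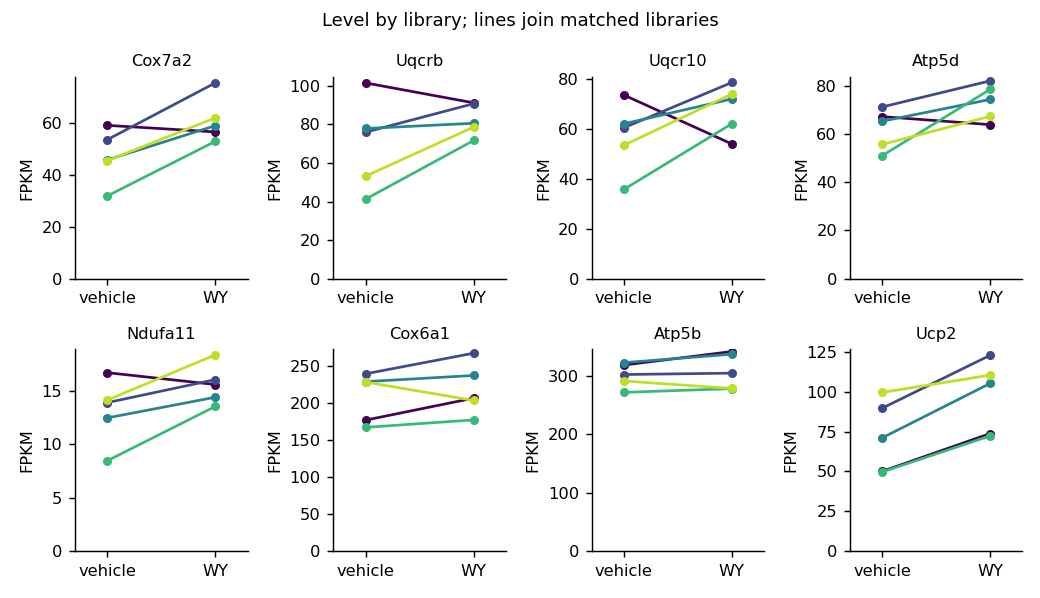
FPKM in each library for nuclear members described in the text and for Ucp2, which is not a member, with numbered partners joined. The groups overlap in every panel, and vehicle replicate 4 is often the lowest library, as in Cox7a2 (31.8 FPKM) and Uqcrb (41.3 FPKM).

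Since most nuclear members had a higher mean, the promoters of all nuclear members, assembly factors included, were searched for motifs of factors known to act on respiratory genes. RefSeq promoters (GRCm38.p6, from 250 bases before to 50 after a start) were found for 75 of the 90 tested nuclear members, with 80 starts. The motifs, read on both strands, were GCGCATGCGC for NRF1, CCGGAAG for ETS factors such as GABP, TCAAGGTCA for ERR and AGGTCANAGGTCA, a direct repeat of the type PPARs bind. The NRF1 motif was in 8.75% of member promoters, 2.18% of those of tested protein-coding genes and 0.971% of all 32851. The ETS motif was in 23.75%, 18.6% and 8.86%, and the ERR motif in 2.5%, 0.265% and 0.423%. The member shares rest on small counts, 2 of 80 promoters for ERR and 7 of 80 for NRF1. Without the assembly factors, which were split in direction, the member shares were 6.85% for NRF1, 23.3% for ETS and 2.74% for ERR. The direct repeat was in 0 of 80 member promoters, beside 0.0442% and 0.0396%. Only 13 of all 32851 promoters held this exact run, so 80 promoters are too few to show a lack of it. Variant repeats were not searched. The ERR motif ends in AGGTCA, the unit of the direct repeat. The 160 bases before the start are printed for 4 members to show where the motif lies. They had the smallest matched p among members holding a motif there, with assembly factors left out. Capitals mark the motif, ERR in Atp5g3 (chr2:73911327-73911486, minus strand), NRF1 in Ndufa11 (chr17:56717602-56717761, plus strand) and ETS in Uqcr11 (chr10:80406822-80406981, minus strand) and Uqcrh (chr4:116075071-116075230, minus strand).
Atp5g3: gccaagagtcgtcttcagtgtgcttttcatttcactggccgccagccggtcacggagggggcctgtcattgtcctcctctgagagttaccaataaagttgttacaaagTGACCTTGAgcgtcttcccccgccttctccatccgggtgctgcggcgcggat
Ndufa11: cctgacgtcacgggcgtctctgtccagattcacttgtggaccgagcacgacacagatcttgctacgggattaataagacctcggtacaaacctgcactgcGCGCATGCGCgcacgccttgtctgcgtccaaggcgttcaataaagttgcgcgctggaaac
Uqcr11: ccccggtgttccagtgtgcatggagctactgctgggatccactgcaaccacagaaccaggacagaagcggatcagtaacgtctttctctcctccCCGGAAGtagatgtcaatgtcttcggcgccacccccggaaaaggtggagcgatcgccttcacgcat
Uqcrh: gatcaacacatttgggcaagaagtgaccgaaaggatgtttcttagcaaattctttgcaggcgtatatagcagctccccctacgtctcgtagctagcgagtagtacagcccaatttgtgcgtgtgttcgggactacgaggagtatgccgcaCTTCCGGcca
A match is a run of letters only, and binding was not measured.

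Genes around the chain were tested from other lists, and 0 members of any list were called in either fit. Assembly factors of all complexes other than those named Nduf numbered 45 tested, of which 33 were higher on average, at a median of 0.05. Dmac2l, a factor of complex V, averaged 5.93 ± 1.06 and 6.97 ± 1.24 FPKM and was higher in 5 of 5 pairs (limma, matched adjusted p = 0.147), and Sdhaf1, a factor of complex II, 0.806 ± 0.288 and 1.35 ± 0.408 FPKM (0.310). The list of supercomplex and coupling genes had 6 of 7 higher and a median of 0.12. Within it Ucp2, an inner-membrane carrier protein of the uncoupling family, was at 49.97, 89.7, 71.0, 49.6 and 99.6 FPKM in vehicle and at 73.7, 122.9, 105.2, 72.3 and 110.4 FPKM in WY-14643. Each WY-14643 library was above its partner while the groups overlapped. The log2 fold change was 0.45 with a matched SE of 0.07. It did not pass without pairs (limma, adjusted p = 1.0) or in the matched fit (0.0656). Of 27 settings 2 called it, the matched fit by voom on recovered reads, with the lowest adjusted p of 9.42e-04, and the matched fit without pair 5.

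Regulators and neighbouring pathways were looked at the same way. Ppargc1a, a coactivator of mitochondrial biogenesis, averaged 1.78 FPKM with vehicle and 1.6 FPKM with WY-14643, a log2 fold change of -0.04, and Tfam, the packaging and transcription factor of mitochondrial DNA, 12.9 and 13 FPKM. Of 9 tested biogenesis regulators 3 were higher on average, at a median of -0.06, and Gabpb1, a subunit of the GABP factor, had the smallest matched p (log2 fold change -0.17; limma, matched adjusted p = 0.266). Mitochondrial transcription and messenger RNA stability had 15 of 24 higher with a median of 0.01. Mitochondrial ribosomal proteins had 40 of 77 higher with a median of 0.01. Among them Mrps6, averaged 17.8 ± 4.58 and 22.9 ± 4.04 FPKM (SD, n = 5 each) and was higher in 5 of 5 pairs (limma, matched adjusted p = 0.153). Of 27 settings 1 called it, the matched fit by voom (0.0388). Coenzyme Q synthesis had 6 of 13 higher with a median of -0.00. Enzymes of the citric acid cycle had 10 of 14 higher with a median of 0.01, led by Suclg2, a subunit of succinyl-CoA ligase, at 0.16 (limma, matched adjusted p = 0.228). Differences between these lists and the respiratory chain were not tested.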

How the data were processed

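RNA of 10 mouse colon organoid libraries was analysed from 1 table of 56748 genes. The deposited values are FPKM, made by the authors; the submitters' processing notes name HISAT2 2.0.5, featureCounts 1.5.0-p3 and mm39. Annotation release, strand setting and treatment of multiply matching reads: not given in the sources used here. FPKM times gene length gave whole reads for 100% of values above 0 (tolerance 0.01), 15618244 to 29271304 per library.

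The 13607 genes averaging 0.5 FPKM or more were tested with limma 3.58.1 in R 4.3.3, on log2(FPKM + 1) with trend and robust priors, without covariates, adjusted by Benjamini-Hochberg over all of them at a threshold of 0.05. Both fits were also run on simulated data built from the means of the presumed pairs. That run takes the pairing as given, so it cannot show whether the pairing holds, and its results are not reported here. Labels share no replicate numbers between groups. The matched fit adds the numerical pair as a block. That pairing rests on correlations in the data (0.423 to 0.782 within pairs) and on no label. Alternatives were another pseudocount and filter, voom, library weights, other totals and single libraries or pairs left out. Sequence words of 50 bases came from GENCODE M21 (GRCm38). Python 3.11.15 and matplotlib 3.10.9 made the figures.

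Members and lists were chosen with earlier results of these data known, so no list received a p of its own. Named members were all mitochondrial genes, the 2 most abundant and the 2 of smallest p of each complex, complex II, cytochrome c, tissue-specific forms, and from other lists the 2 of smallest matched p. Ndufb10, Uqcrc2, Ndufa12, Ndufa9, Ndufb3, Ndufs1, Ndufv1, Ndufaf1, Ndufaf7, Cox5b and Cox5b-ps were added after their values were seen, as were the 2 lists of short and of ribosomal protein genes. Some results are not reported here.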

Additional observations from a re-analysis of the deposited data

Results flagged for a closer look

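Single libraries stood far from the other 4 of their group in 10 of 110 sets of values examined. The measure is the gap to the nearest library divided by the range of the group, with a critical value of 0.71 for 5 libraries, and chance alone marks about 1 set in 20. Atp5g3 in vehicle had a gap of 0.824, from vehicle replicate 4 at 45.8 FPKM below 70.3 to 75.6 FPKM in the others. Cox7b in WY-14643 had 0.72, from replicate 7 at 110.3 FPKM above 76.0 to 85.7 FPKM. mt-Nd3 in WY-14643 had 0.795, from replicate 9 at 158.1 FPKM above 27.6 to 54.3 FPKM.

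The other 7 sets are of genes with almost no reads, where 1 library was above 0 and 4 were listed at 0, which gives a gap of 1.0. They are Cox6a2 and Ndufa4l2 in vehicle, and Cox4i2, Cox6a2, Cox8b, Ndufa4l2 and Cox8c in WY-14643.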

How the results depend on the processing

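Members called stayed at 0 in each of the 26 alternatives. The count over all genes, 0 as fitted without pairs, was 43 (39 higher, 4 lower) with the replicate block, 21 with library quality weights and 0 to 2 when 1 library was left out. With the replicate block and a pair left out it was 2 to 33 (13 without pair 4). With the replicate block it was 53 without mitochondrial reads in the total, 40 with a pseudocount of 0.1 and 239 (190 higher, 49 lower) by voom, and these last 3 settings were chosen after the data had been seen. The cause of these differences was not tested.

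The median of the nuclear members was above 0 in each setting, from 0.02 without vehicle replicate 4 to 0.14, and 0.06 with library weights, where 68 of 90 members were higher. With 1 library left out the medians were 0.01 to 0.13 for complex I, -0.03 to 0.15 for complex II, 0.03 to 0.22 for complex III, 0.01 to 0.16 for complex IV and 0.01 to 0.15 for complex V. Of 39 named members in the fits, 17 kept 1 sign in each setting and 22 took both. The difference in the mitochondrial share of reads, 0.0083 percentage points, lay between -0.257 and 0.287 when single libraries were left out. Leaving out 1 library breaks its pair. Within pairs 1 to 5 the difference was -0.102, 0.205, -0.0432, -0.150 and 0.132 points. Precision is limited by 5 libraries a group, by the differences between pairs and, for mt-Co2, mt-Co3, mt-Atp6, mt-Nd3 and mt-Nd4l, by reads that match nuclear copies.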
